A study of Homo sapiens with 6 samples.

Results

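The genes that build and trim N-glycans, the sugar chains attached to asparagine residues of secreted and membrane proteins, were compared between cells depleted of the serine protease PRSS22 and control cells. A fixed list of 43 genes was taken by symbol from a deposited table of 17269 genes, and all 43 were in it. The list covers sugar supply, assembly of the oligosaccharide on dolichol, its transfer to protein, and trimming and rebuilding in the endoplasmic reticulum (ER) and Golgi. The cells were HCT116, an established human colorectal carcinoma line with epithelial features, grown in RPMI1640 medium with serum. The first group, shPRSS22 (3 libraries), carries a short hairpin RNA against PRSS22. The control group, shCtrl (3 libraries), is named for a control hairpin in the sample titles, whereas its genotype label reads WT. The labels give neither the hairpin sequence, the number of clones nor whether replicates were separate cultures, so p-values measure only the spread between these libraries, which may be technical.

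Libraries held between 14920523 and 15466647 estimated counts. PRSS22 itself stood at 3.09, 3.16 and 2.61 CPM (counts scaled to library size) in shPRSS22 replicates 1 to 3, against 10.1, 9.38 and 10.1 CPM in shCtrl replicates 1 to 3. The groups did not overlap. PRSS22 fell by 1.74 on the log2 scale with an SE of 0.135 (adjusted p = 4.78e-12 by edgeR). The epithelial markers EPCAM, CDH1, KRT8, KRT18 and KRT19 together gave 4020 to 4253 CPM in shPRSS22 and 4095 to 4288 in shCtrl libraries. Within this sum CDH1 was higher in shPRSS22, at 5039, 4686 and 5083 counts in replicates 1 to 3, against 4337, 4370 and 4443 in shCtrl replicates 1 to 3. Of immune markers 3 of 4 were in the table, and they summed to 0.327 to 0.776 CPM in shPRSS22 and 0.198 to 0.254 in shCtrl libraries. The 3 endothelial markers summed to 1.62 to 1.89 CPM in shPRSS22 and 0.727 to 1.58 CPM in shCtrl libraries, with CDH5 at 0 in every library. The 4 fibroblast markers summed to 28.6 to 34.8 CPM in shPRSS22 and 24.6 to 32.2 in shCtrl libraries, nearly all of it COL1A1. Markers of differentiated intestinal cells, 5 genes led by CA2, summed to 45.9 to 50.8 CPM in shPRSS22 and 36.3 to 39.2 in shCtrl libraries. CA2 was higher in every shPRSS22 library, at 680, 699 and 679 counts in replicates 1 to 3, against 529, 551 and 574 in shCtrl replicates 1 to 3. In that list shPRSS22 replicate 1 stood apart: FABP1 had 13 and SLC26A3 16 counts there and 0 in each of the other 5 libraries, and KRT20 had 53, 23 and 24 counts in shPRSS22 replicates 1 to 3, against 13, 15 and 12 in shCtrl replicates 1 to 3. The part of these markers in the results below was not tested.

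N-glycosylation begins with activated sugars made in the cytosol. An oligosaccharide of N-acetylglucosamine, mannose and glucose is assembled stepwise on the lipid dolichol, partly on the cytosolic and partly on the lumenal face of the ER membrane. Oligosaccharyltransferase moves it as a block onto nascent proteins, glucosidases and mannosidases trim it while chaperones follow folding, and Golgi mannosidases and glycosyltransferases convert it into complex chains. In colorectal and other epithelial cancers, branched, fucosylated and sialylated N-glycans on receptors and adhesion proteins are a long-studied feature.

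Promoter windows of 300 bases (250 before to 50 after an annotated start; RefSeq, GRCh38.p14) were matched by symbol for 38 of the 43 members, all but STT3B, RPN1, TUSC3, MOGS and MAN1A2, and gave 65 windows because some genes have several starts. They were searched on both strands for 6 short elements of stress responses. The ER stress response element ERSE (CCAAT and CCACG with any 9 bases between them) is shown because the unfolded protein response acts through it and because only 27 of all 35116 windows (0.0769%) hold it. Among the members it was found at ALG12, and among the wider set of pathway genes described further on at CANX and CALR. Capitals mark the element, each line is read along the gene's own strand, and in CALR the element lies on the opposite strand:

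ALG12 (chr22:49918549-49918577, minus strand): atggcCCAATCCGAGTTCGCCACGagagg

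CANX (chr5:179698773-179698801, plus strand): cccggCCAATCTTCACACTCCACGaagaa

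CALR (chr19:12938379-12938407, plus strand): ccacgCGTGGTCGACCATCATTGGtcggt

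None of these 3 genes passed the test: the log2 fold change was -0.07 (SE 0.069) for ALG12, 0.02 (SE 0.036) for CANX and 0.0025 (SE 0.038) for CALR. The ALG12 element lies before the start of ALG12 and inside the annotated span of CRELD2, an ER chaperone gene that overlaps ALG12 on the other strand (GENCODE 29). CRELD2 fell to 70.3, 70.7 and 73.9 CPM in shPRSS22 replicates 1 to 3, against 90.3, 88.0 and 94.0 CPM in shCtrl replicates 1 to 3 (log2 fold change -0.34, SE 0.043, adjusted p = 1.17e-07).

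The core of the antioxidant response element (TGACNNNGC), the site of NRF2 with small MAF proteins, is shown for the 4 mannosidase genes that fell among the 43, as described below. MAN1A2, the other mannosidase gene among the 43, did not pass and had no window to search. The mannosidase genes MAN1C1, EDEM1, EDEM2 and EDEM3 of the wider set, which also fell, did not hold these letters in their windows. It is a loose pattern: 4687 of all windows (13.3%) hold it, and so do 11 of the 65 member windows (16.9%). Capitals again mark the pattern, which lies on the opposite strand in MAN1A1 and MAN2A2, and the MAN2A2 window is that of 1 of its annotated starts. In MAN1B1 and MAN2A1 the pattern lies after the annotated start. These windows were picked after the values were known:

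MAN1B1 (chr9:137086977-137087005, plus strand): ggcgggctgtTGACGGCGCtgcgatggct

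MAN1A1 (chr6:119349809-119349837, minus strand): tggcccggccGCGCCGTCActctccggcc

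MAN2A1 (chr5:109689936-109689964, plus strand): tccgcttctcTGACCTAGCtgcgcggccc

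MAN2A2 (chr15:90903052-90903077, plus strand): cgccactGCGGCGTCAgaggggccag

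The pattern was also found at ALG8, which rose, and at ALG13, ALG1, ALG3, ALG12, GANAB and MGAT1, which did not pass. In the wider set it was found at 15 of the 45 genes with a window, among them SRD5A3, UGGT2, NANP, SLC35A2 and ST3GAL4, which rose, and DOLK, which fell. The windows of the other members that rose or fell did not hold these letters. ERSE-II (ATTGG, any 1 base, then CCACG, in 0.0541% of all windows), TGACGTGG (0.729%), TGATGNAAT (0.991%) and TGACGTCA (1.85%) were in no member window. In the wider set TGACGTGG was found at DHDDS and NANS, neither of which passed. ERSE-II, TGATGNAAT and TGACGTCA were found at none of its genes. A match describes the sequence and does not show that a factor binds there.

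Of the 43 genes, all of which had enough counts to be tested, 7 rose and 7 fell in shPRSS22 cells and 29 did not pass (edgeR quasi-likelihood test, adjusted p under 0.05 over 13104 genes). Across all tested genes 39.1% passed, 19.9% higher and 19.3% lower, and of the N-glycan genes 32.6%, a share near that background. In bulk RNA, fewer cells with a transcript and less of it per cell cannot be told apart. Without shPRSS22 replicate 1, 6 rose and 5 fell, with ALG8, MPI and MAN2A1 no longer past the threshold. ALG5, GFPT1, UAP1, DAD1, ALG8, DPM1 and STT3A rose, and MAN1B1, MAN1A1, MGAT2, DDOST, MAN2A2, MPI and MAN2A1 fell. Most of these differences were small. With a fold of at least 1.2 also required, 3 were higher (ALG5, GFPT1 and UAP1) and 2 lower (MAN1B1 and MAN1A1), where 18.2% of all tested genes met that rule, 8.29% higher and 9.94% lower. For 19 of the 43 genes (44.2%) all libraries of one group lay above all of the other, against 48.6% of all tested genes. The median log2 fold change was 0.0061 over the N-glycan genes and -0.0056 over all tested genes, and the median size without sign was 0.095 and 0.14.

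**Figure D1:**
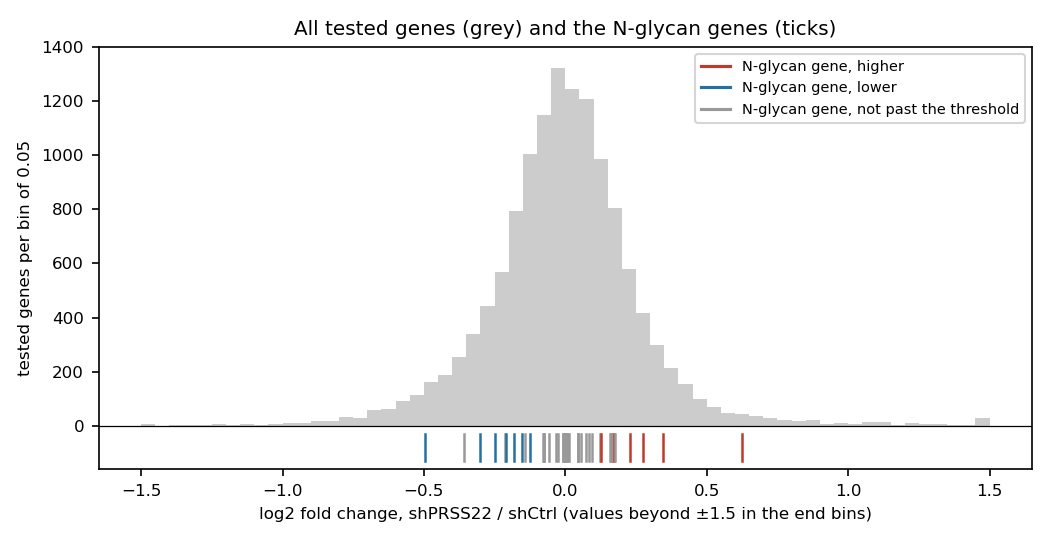
The histogram counts tested genes by log2 fold change (shPRSS22 over shCtrl) and ticks mark the 43 N-glycan genes, coloured by call. The N-glycan genes lie across the middle of the distribution, from -0.50 (MAN1B1) to 0.62 (ALG5).

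By step, the genes that rose stand at sugar supply, dolichol-linked assembly and transfer to protein. Among these same steps MPI, in mannose supply, and DDOST, a subunit of the transferase, fell. The other genes that fell, MAN1B1, MAN1A1, MAN2A1, MAN2A2 and MGAT2, stand at trimming and later steps. This summary was drawn after the values were known. Whether the steps differ from each other was not tested.

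**Figure D2:**
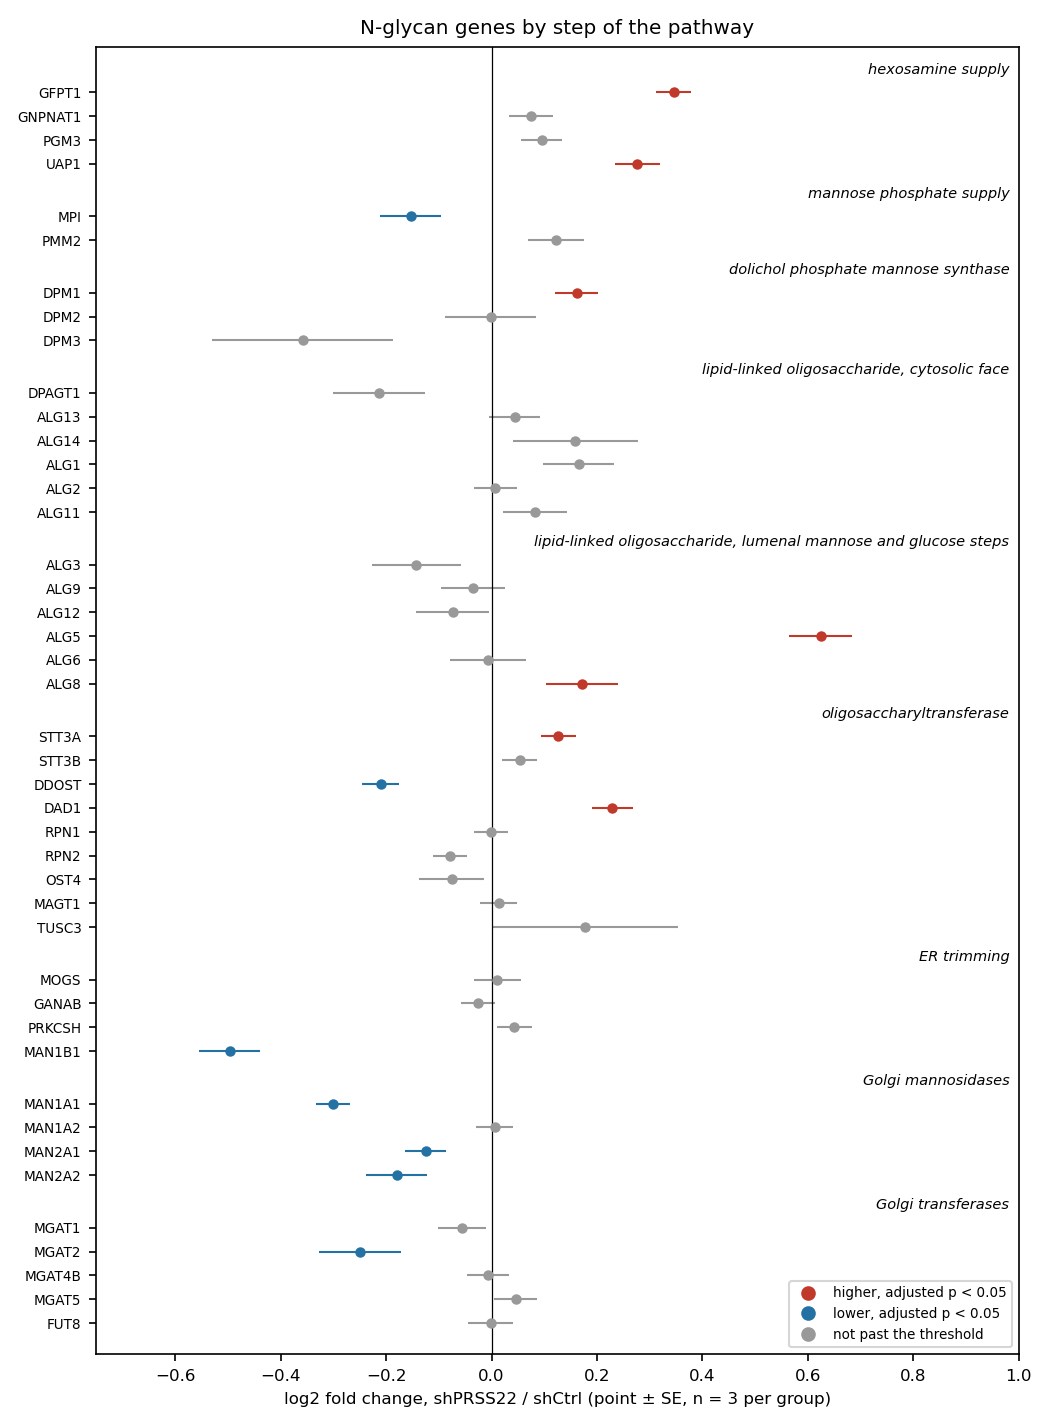
Log2 fold changes of the 43 genes (horizontal axis, shPRSS22 over shCtrl; point and SE from 3 libraries per group) are grouped by step of the pathway from top to bottom. The 7 genes that rose lie between hexosamine supply and oligosaccharyltransferase, as do MPI and DDOST, which fell. MAN1B1 and the Golgi mannosidases MAN1A1, MAN2A1 and MAN2A2 lie to the left of 0.

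Hexosamine supply makes UDP-N-acetylglucosamine, the donor for the base of every N-glycan and for its branches. Of 4 genes 2 rose and 0 fell, where 19.9% of all tested genes rose, and all 4 log2 fold changes were positive. GFPT1 (Entrez 2673; chr2:69319769-69387254, minus strand, GRCh38, GENCODE 29), which encodes the rate-limiting enzyme of the pathway, stood at 464, 473 and 482 CPM in shPRSS22 replicates 1 to 3, against 381, 364 and 373 CPM in shCtrl replicates 1 to 3. Every knockdown library was above every control library, a log2 fold change of 0.35 (SE 0.033, adjusted p = 5.01e-10). UAP1 (Entrez 6675; chr1:162561506-162599842, plus strand), the pyrophosphorylase that completes UDP-N-acetylglucosamine, stood at 110.5, 116 and 103 CPM in shPRSS22, against 90.2, 89.7 and 92.1 CPM in shCtrl libraries. These groups did not overlap either (0.28, SE 0.043, adjusted p = 4.25e-06). The middle enzymes, the acetyltransferase GNPNAT1 (0.07, SE 0.041, adjusted p = 0.154) and the mutase PGM3 (0.10, SE 0.039, adjusted p = 0.0523), did not pass. In the wider set, GFPT2 (-0.07, adjusted p = 0.431), the paralog of GFPT1, and NAGK (-0.10, adjusted p = 0.351) had negative values and did not pass either.

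Mannose phosphate is made by MPI, which converts fructose 6-phosphate, and by PMM2, which moves the phosphate to the position needed for GDP-mannose. MPI (Entrez 4351; chr15:74890005-74902219, plus strand) stood at 44.2, 46.1 and 42.3 CPM in shPRSS22 and at 51.9, 51.1 and 44.5 CPM in shCtrl libraries. Its groups overlapped, since shCtrl replicate 3 lay below shPRSS22 replicate 2, and the log2 fold change was -0.15 (SE 0.057, adjusted p = 0.0321). The MPI call was lost without shPRSS22 replicate 1 (adjusted p = 0.0664), shPRSS22 replicate 3 (0.124), shCtrl replicate 1 (0.183) or shCtrl replicate 2 (0.146). PMM2, the gene most often mutated in inherited disorders of N-glycosylation, had a value of 0.12 (SE 0.053, adjusted p = 0.0649). MPI shares exons with FAM219B on the opposite strand, and no strand marking is described, so reads of the overlap cannot be assigned.

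Dolichol phosphate mannose, the mannose donor in the ER lumen, is made by a complex of DPM1 with DPM2 and DPM3. DPM1 (Entrez 8813; chr20:50934867-50958555, minus strand), the catalytic subunit, stood at 88.5, 87.9 and 86.1 CPM in shPRSS22, against 78.0, 78.2 and 78.4 CPM in shCtrl libraries. The groups were separated and tight, at 0.16 (SE 0.041, adjusted p = 0.00194). DPM2, a small membrane subunit, had a value of -0.0015 (SE 0.086). DPM3, which anchors DPM1 in the membrane, had 47, 56 and 43 counts in shPRSS22 and 54, 69 and 61 counts in shCtrl libraries, and its log2 fold change of -0.36 (SE 0.172, adjusted p = 0.0983) did not pass.

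Of the 6 genes for assembly on the cytosolic face of the ER, 0 passed in either direction, where 39.1% of all tested genes passed. DPAGT1, which starts the chain on dolichol phosphate, had a log2 fold change of -0.21 (SE 0.088, adjusted p = 0.0528), with 13.2, 12.6 and 12.2 CPM in shPRSS22 and 15.6, 14.5 and 14.01 CPM in shCtrl libraries. ALG1, which adds the first mannose, had one of 0.17 (SE 0.068, adjusted p = 0.0517), with 25.9, 24.1 and 24.0 CPM in shPRSS22 and 21.4, 22.1 and 22.5 CPM in shCtrl libraries. In both genes the groups did not overlap although the test was missed. ALG13 and ALG14, which together add a further N-acetylglucosamine, had values of 0.04 and 0.16, and the mannosyltransferases ALG2 and ALG11 had 0.0073 and 0.08, none past the threshold.

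The 6 genes grouped with the mannose and glucose steps completed in the lumen include ALG5, which supplies a donor for them. Of these 6 genes 2 rose and 0 fell, where 19.9% of all tested genes rose. ALG5 (Entrez 29880; chr13:36949775-37000261, minus strand), which makes dolichol phosphate glucose, the donor for all 3 glucose steps (ALG6, ALG8 and ALG10), rose most of all 43 genes. It stood at 42.5, 39.7 and 44.1 CPM in shPRSS22 replicates 1 to 3, against 27.0, 28.3 and 26.6 CPM in shCtrl replicates 1 to 3. Its lowest knockdown library was far above its highest control library, and the log2 fold change was 0.62 (SE 0.060, adjusted p = 4.78e-10). ALG8 (Entrez 79053; chr11:78100936-78139660, minus strand), which adds a glucose from that donor, stood at 24.1, 25.6 and 24.2 CPM in shPRSS22, against 22.0, 21.1 and 22.5 CPM in shCtrl libraries. The groups did not overlap (0.17, SE 0.068, adjusted p = 0.0427), but the ALG8 call was lost without any one of 5 libraries, all but shCtrl replicate 3, at adjusted p-values of 0.0519 to 0.152. The glucosyltransferase ALG6 (-0.0067) and the mannosyltransferases ALG3 (-0.14), ALG9 (-0.03) and ALG12 (-0.07) did not pass.

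Oligosaccharyltransferase carries the finished chain onto protein and exists in a form built on STT3A, which acts during translocation, and a form built on STT3B, which acts on sites that were skipped. Of 9 subunit genes 2 rose, 1 fell and 6 did not pass, or 33.3% past the threshold against 39.1% of all tested genes. DAD1 (Entrez 1603; chr14:22564905-22589269, minus strand), a small subunit of both forms, stood at 121.6, 127 and 121.1 CPM in shPRSS22, against 102, 109 and 104 CPM in shCtrl libraries (0.23, SE 0.039, adjusted p = 1.78e-05). STT3A (Entrez 3703; chr11:125591712-125625215, plus strand), a catalytic subunit, stood at 262, 260.0 and 269 CPM in shPRSS22, against 236, 248 and 240.2 CPM in shCtrl libraries (0.13, SE 0.033, adjusted p = 0.00286). DDOST (Entrez 1650; chr1:20651767-20661544, minus strand), a structural subunit of both forms, moved the other way, at 578, 630.3 and 611 CPM in shPRSS22, against 703, 696 and 706 CPM in shCtrl libraries (-0.21, SE 0.035, adjusted p = 1.27e-05). None of these 3 genes overlapped between groups, where 48.6% of all tested genes did not overlap. Of the 9 subunit genes 5 did not overlap, among them STT3B and RPN2, which did not pass.

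The other catalytic subunit, STT3B, had a log2 fold change of 0.05 (SE 0.033, adjusted p = 0.206). The ribophorins RPN1 (-0.0012) and RPN2 (-0.08, adjusted p = 0.0525), the small subunit OST4 (-0.08) and the oxidoreductase subunits MAGT1 (0.01) and TUSC3 (0.18) did not pass.

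**Figure D3:**
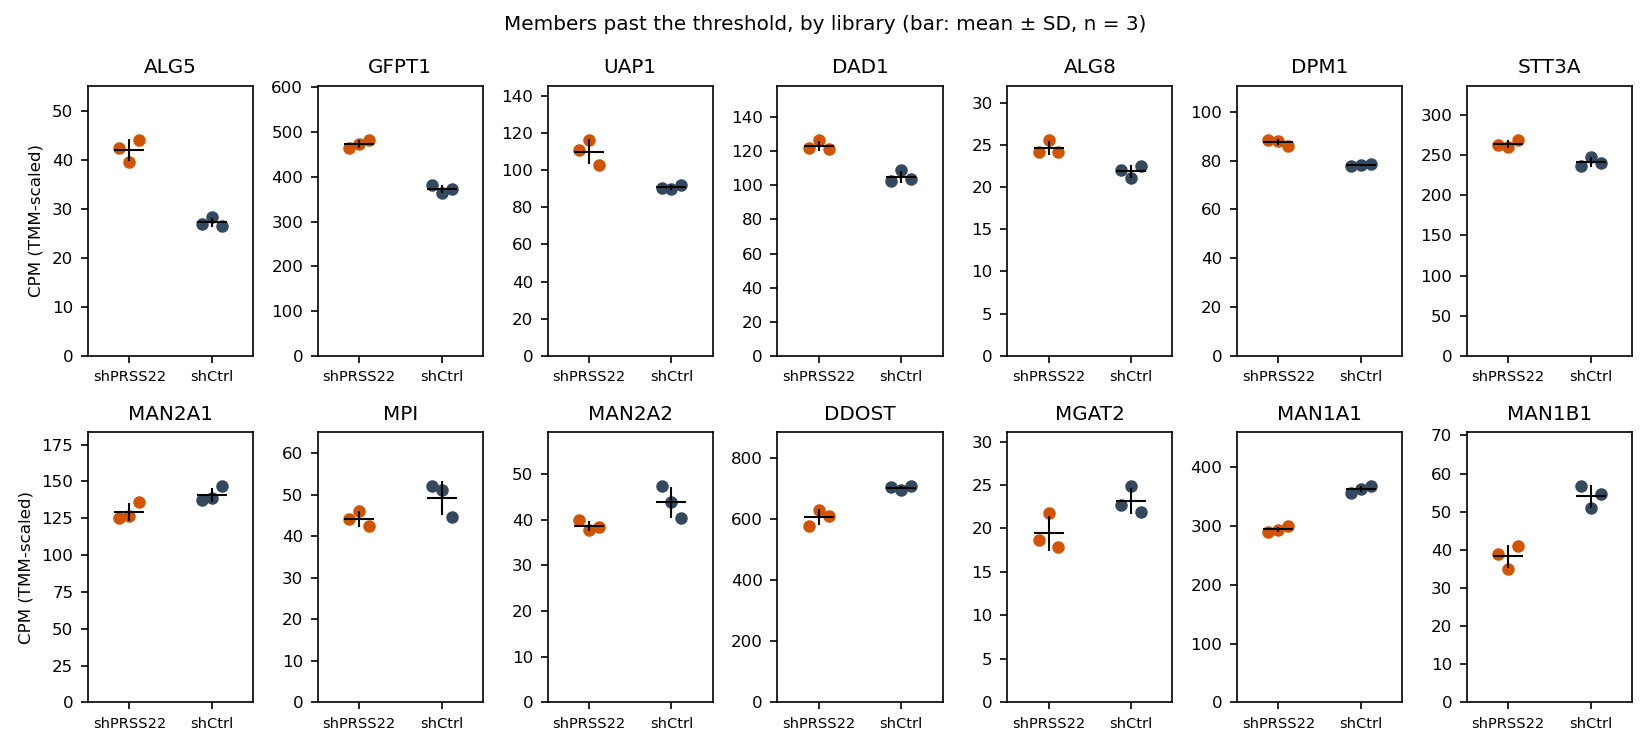
Levels in CPM (vertical axes start at 0) of the 14 genes past the threshold are plotted by library, with shPRSS22 left and shCtrl right and mean ± SD of 3 libraries as a bar. The groups are apart in every panel but that of MPI, and the widest gaps are those of ALG5 and MAN1B1.

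On the deposited per-length scale (TPM, which corrects for transcript length and depth) mRNA levels of the subunits differed widely. Protein amounts were not measured. DDOST averaged 596 ± 16.3 TPM in shPRSS22 and 685 ± 9.29 TPM in shCtrl libraries (SD, n = 3 each), the highest of the 9. DAD1 followed at 529.8 ± 2.25 TPM in shPRSS22 and 452 ± 9.29 TPM in shCtrl libraries. RPN1, RPN2 and OST4 lay between 410.0 and 447 TPM in both groups, a range within which OST4 and RPN1 of shPRSS22 did not differ beyond their spread. The mRNAs of the catalytic subunits were less abundant. STT3B averaged 198 ± 6.54 TPM in shPRSS22 and 188 ± 6.86 TPM in shCtrl, and STT3A 144 ± 5.19 TPM in shPRSS22 and 131 ± 2.61 TPM in shCtrl. MAGT1, a subunit of the STT3B form, averaged 127 ± 3.78 TPM in shPRSS22 and 125 ± 5.51 TPM in shCtrl. Its paralog TUSC3 was near the floor, at 1.55 ± 0.118 TPM in shPRSS22 and 1.37 ± 0.207 TPM in shCtrl libraries, from 43 to 61 counts per library.

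**Figure D4:**
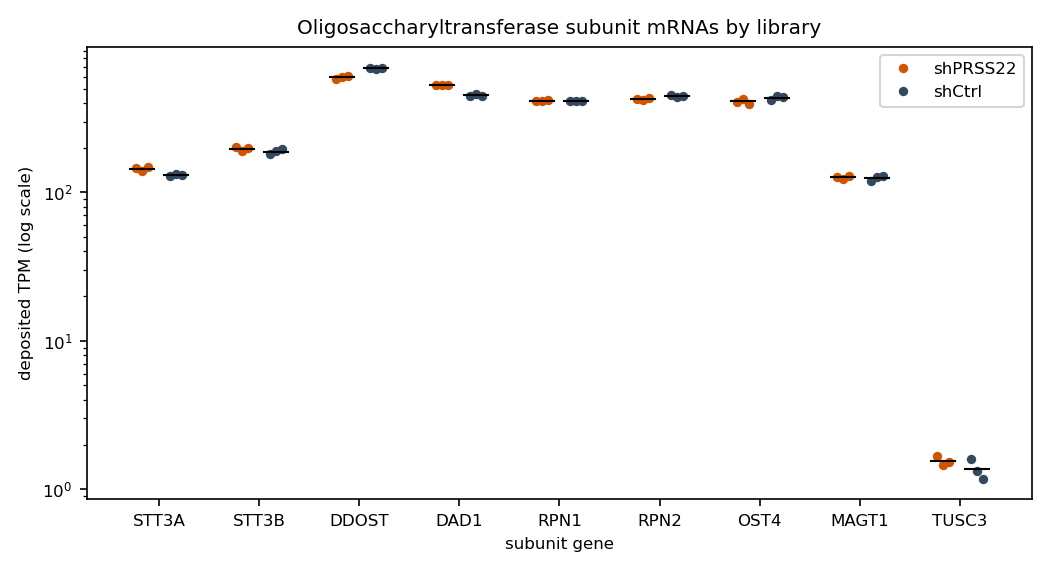
Deposited TPM (log axis) of the 9 oligosaccharyltransferase subunit genes by library, shPRSS22 left of shCtrl for each gene, with the mean as a line. DDOST and DAD1 are the subunits whose groups separate most in opposite directions, and TUSC3 lies far under the rest.

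Paralogs were also set against each other within each library, which removes any effect of library scaling; 4 pairs were compared, with 3 libraries per group. An exact two-sided permutation test of 3 against 3 cannot go below p = 0.1. The ratio of STT3A to STT3B was 0.717, 0.731 and 0.745 in shPRSS22 replicates 1 to 3, against 0.707, 0.702 and 0.675 in shCtrl replicates 1 to 3. All knockdown ratios were above all control ratios, by 0.07 on the log2 scale (exact permutation p = 0.1, adjusted over the pairs 0.2). MAGT1 to TUSC3 gave ratios of 75.8, 84.5 and 85.5 in shPRSS22, against 74.6, 94.8 and 109.6 in shCtrl libraries, which overlapped (exact permutation p = 0.5, adjusted 0.667). MAN1A1 to MAN1A2 gave 3.07, 3.32 and 3.30 in shPRSS22, against 3.99, 3.997 and 4.01 in shCtrl libraries, a difference of -0.31 on the log2 scale with no overlap (exact permutation p = 0.1, adjusted 0.2). MAN2A1 to MAN2A2 gave 2.59, 2.67 and 2.84 in shPRSS22, against 2.39, 2.55 and 2.99 in shCtrl libraries, which overlapped (exact permutation p = 0.8, adjusted 0.8).

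In ER trimming 1 of 4 genes fell and 0 rose, or 25.0% past the threshold against 39.1% of all tested genes. Glucosidase I, MOGS (0.01), and the catalytic and regulatory subunits of glucosidase II, GANAB (-0.03) and PRKCSH (0.04), which remove the glucoses, did not pass, with SEs of 0.033 to 0.045. MAN1B1 (Entrez 11253; chr9:137086927-137109187, plus strand) encodes ER mannosidase I, which removes a mannose from glycans of mature and misfolded proteins, and it fell most of the 43 genes. It stood at 38.9, 35.0 and 40.9 CPM in shPRSS22 replicates 1 to 3, against 56.6, 50.8 and 54.6 CPM in shCtrl replicates 1 to 3. The groups were well apart, with a log2 fold change of -0.50 (SE 0.058, adjusted p = 2.60e-08).

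Golgi mannosidases fell in 3 of 4 genes and rose in 0, where 19.3% of all tested genes fell. MAN1A1 (Entrez 4121; chr6:119177209-119349761, minus strand), Golgi mannosidase IA, which trims toward the substrate of complex chains, stood at 289, 293 and 299 CPM in shPRSS22, against 357, 362 and 367 CPM in shCtrl libraries. The groups did not overlap (-0.30, SE 0.033, adjusted p = 6.48e-09). Its paralog MAN1A2, Golgi mannosidase IB, stood at 184, 174 and 182 CPM in shPRSS22 and at 176, 181 and 181 CPM in shCtrl libraries, overlapping throughout (0.0061, SE 0.035, adjusted p = 0.910). MAN2A1 (Entrez 4124; chr5:109689366-109869625, plus strand) encodes alpha-mannosidase II, which acts after MGAT1, and had 125, 127 and 136 CPM in shPRSS22, against 138, 139 and 147 CPM in shCtrl libraries (-0.12, SE 0.039, adjusted p = 0.0109). MAN2A2 (Entrez 4122; chr15:90902218-90922584, plus strand), the paralogous enzyme IIx, had 39.8, 37.8 and 38.4 CPM in shPRSS22, against 47.3, 43.8 and 40.4 CPM in shCtrl libraries (-0.18, SE 0.058, adjusted p = 0.0135). The groups of both were close but did not overlap. The MAN2A1 call was lost without shPRSS22 replicate 1 (log2 fold change -0.10, adjusted p = 0.0683) or shCtrl replicate 3 (-0.09, 0.0996), and the MAN2A2 call without shCtrl replicate 1 (-0.12, 0.140).

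Golgi transferases that build branches and core fucose fell in 1 of 5 genes and rose in 0. That is 20.0% past the threshold against 39.1% of all tested genes. MGAT2 (Entrez 4247; chr14:49620795-49623481, plus strand), which commits the chain to the complex type by starting its other arm, had 18.7, 21.8 and 17.9 CPM in shPRSS22, against 22.7, 24.8 and 21.9 CPM in shCtrl libraries. Its groups barely missed each other (-0.25, SE 0.078, adjusted p = 0.0105), and the call was lost without shPRSS22 replicate 3 (-0.19, adjusted p = 0.0661) or shCtrl replicate 2 (-0.20, 0.0861). MGAT1 (-0.06), which opens the complex pathway, the branching enzymes MGAT4B (-0.0065) and MGAT5 (0.05), of which MGAT5 is long tied to invasive growth of carcinoma cells, and the core fucosyltransferase FUT8 (-0.0016) did not pass. MAN1A1, MAN2A2 and MGAT2 overlap exons of opposite-strand transcripts with no gene symbol of their own, so an unknown part of their reads may belong to those. With named genes included, 18 of the 43 genes overlap opposite-strand exons, and the same limit holds for them. Among these are PGM3, DPAGT1, ALG1, RPN2 and MGAT4B, and ALG12 with CRELD2.

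Of the 29 genes that did not pass, 22 had a log2 fold change within 0.1 of 0, and the SE ranged from 0.032 to 0.176. PGM3, DPAGT1, ALG1 and RPN2 missed the threshold narrowly, at adjusted p-values under 0.06. In the authors' deposited table, the q-value was under 0.05 for 9 of the 43 genes, 6 higher and 3 lower, where 18.6% of all genes with a q-value passed. All 9 were called in the same direction here, and MPI, ALG8, MAN2A1, MAN2A2 and MGAT2 were called here but not in the authors' deposited table.

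The remaining pathway was described with 52 further genes, of which 51 were tested (MGAT3 had too few counts). Here 10 rose, 17 fell and 24 did not pass, or 52.9% past the threshold against 39.1% of all tested genes. With DESeq2 8 rose and 9 fell, where 26.7% of all genes with an adjusted p passed. The list was chosen with earlier results of these data known, so its share cannot serve as a test of the pathway. Without shPRSS22 replicate 1, edgeR called 10 higher and 14 lower. The largest changes were SRD5A3, a reductase that completes dolichol, and TMEM258, a subunit shared by both forms of oligosaccharyltransferase. SRD5A3 stood at 12.5, 12.5 and 11.8 CPM in shPRSS22, against 7.01, 10.0 and 8.72 CPM in shCtrl libraries (0.51, SE 0.110, adjusted p = 3.83e-04). TMEM258 stood at 25.7, 25.4 and 26.1 CPM in shPRSS22, against 32.0, 37.1 and 35.7 CPM in shCtrl libraries (-0.44, SE 0.064, adjusted p = 1.40e-06). Neither overlapped between groups, as was so for 48.6% of all tested genes.

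Dolichol genes moved both ways, with DOLK, the kinase that makes dolichol phosphate, at 9.27, 12.8 and 12.1 CPM in shPRSS22, against 14.5, 13.999 and 16.2 CPM in shCtrl libraries (-0.39, SE 0.102, adjusted p = 0.00285). Accessory subunits that join STT3A to the translocon, OSTC (-0.02) and KRTCAP2 (0.05), did not pass. ALG10B, which adds the last glucose, fell by 0.33 on the log2 scale (SE 0.075, adjusted p = 6.76e-04), while ALG10, its near-identical copy, had -0.15; reads shared by the pair were divided by estimation, so the split is uncertain. MGAT5B, a branching enzyme, had 4.25, 4.34 and 3.98 CPM in shPRSS22, against 5.27, 5.02 and 6.01 CPM in shCtrl libraries (-0.38, SE 0.145, adjusted p = 0.0391), and its call was lost without any one of 5 libraries, all but shCtrl replicate 2 (adjusted p of 0.0643 to 0.170).

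**Figure D5:**
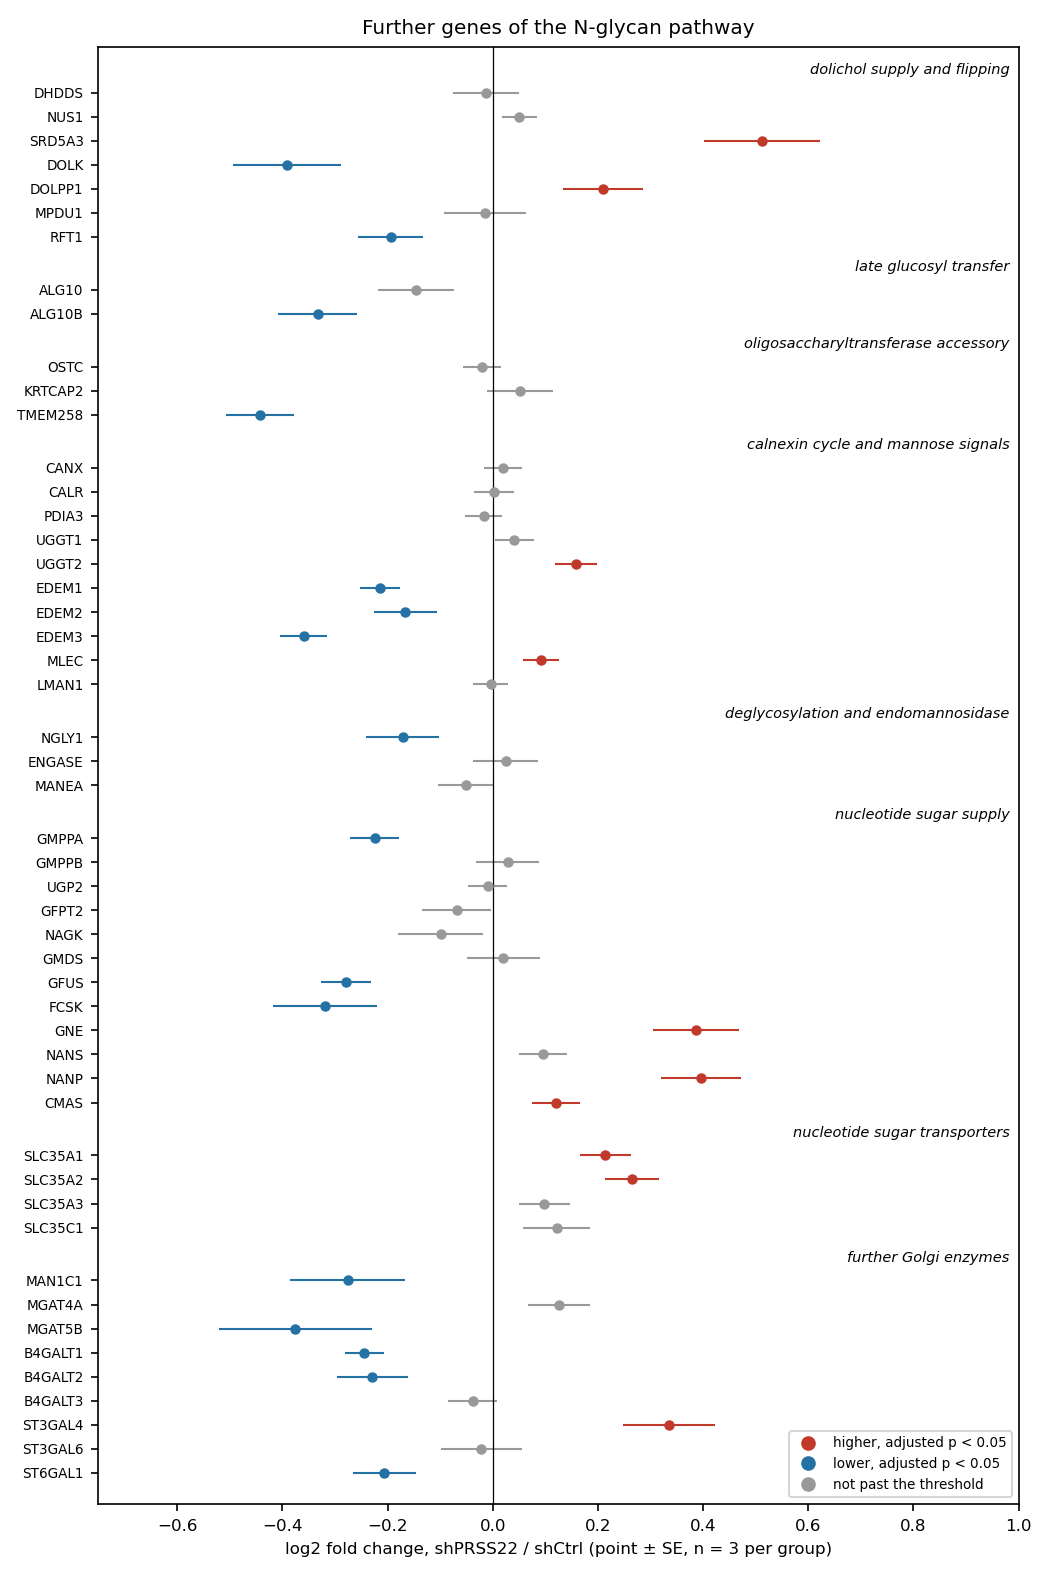
Log2 fold changes (horizontal axis, shPRSS22 over shCtrl; point and SE from 3 libraries per group) of the further pathway genes, all but 1 of the 51 tested, by role from top to bottom. TMEM258, DOLK and MGAT5B lie farthest left, and SRD5A3, NANP and GNE farthest right.

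Genes of both lists were also grouped by chemistry, after the values were known. Of the 7 genes of the class I alpha-mannosidase family (MAN1B1, MAN1A1, MAN1A2, MAN1C1 and EDEM1 to EDEM3), 6 fell and 0 rose, and MAN1A2 did not pass, where 19.3% of all tested genes fell. EDEM3, which trims mannose from misfolded glycoproteins to mark them for degradation, stood at 62.4, 61.3 and 66.5 CPM in shPRSS22, against 82.5, 80.8 and 80.8 CPM in shCtrl libraries (-0.36, SE 0.044, adjusted p = 8.38e-08). EDEM1, with the same role, had 99.8, 94.4 and 95.6 CPM in shPRSS22, against 113.5, 111 and 111 CPM in shCtrl libraries (-0.21, SE 0.039, adjusted p = 4.66e-05). Both were separated between groups, as were 48.6% of all tested genes. EDEM2 (-0.17, adjusted p = 0.0287) lost its call without shPRSS22 replicate 1 or 2 or shCtrl replicate 1 or 3 (adjusted p of 0.0738 to 0.158), and MAN1C1 (-0.28, adjusted p = 0.0427) without any one library but shPRSS22 replicate 1 (0.0821 to 0.153). In the authors' deposited table the q-value was 0.176 for EDEM2 and 0.258 for MAN1C1. The chaperones that bind the glucosylated chain, CANX and CALR, and the thiol oxidoreductase PDIA3 (-0.02) did not pass.

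The sialic acid branch had 5 genes higher, 1 lower and 2 not past the threshold among 8, where 19.9% of all tested genes rose and 19.3% fell; this grouping too was made after the values were known. GNE, whose enzyme starts sialic acid synthesis from UDP-N-acetylglucosamine, stood at 21.9, 19.7 and 22.8 CPM in shPRSS22, against 14.8, 18.0 and 16.5 CPM in shCtrl libraries (0.39, SE 0.081, adjusted p = 2.95e-04). NANP, the phosphatase that releases free sialic acid, stood at 22.1, 21.2 and 20.1 CPM in shPRSS22, against 16.0, 16.0 and 16.1 CPM in shCtrl libraries (0.40, SE 0.075, adjusted p = 8.67e-05). ST3GAL4, an alpha-2,3 sialyltransferase, had 15.4, 17.2 and 17.2 CPM in shPRSS22, against 14.02, 13.5 and 11.96 CPM in shCtrl libraries (0.33, SE 0.088, adjusted p = 0.00275). In all 3 the groups did not overlap, as in 48.6% of all tested genes. The CMP-sialic acid transporter SLC35A1 (0.21, adjusted p = 7.17e-04) and the synthetase CMAS (0.12, adjusted p = 0.0332) also rose, the second losing its call without any one library but shPRSS22 replicate 3 (0.0501 to 0.126). ST6GAL1, the alpha-2,6 sialyltransferase, was the gene that fell (-0.21, adjusted p = 0.00616), and NANS (0.10) and ST3GAL6 (-0.02) did not pass. In the authors' deposited table the q-value was 0.174 for CMAS and 0.0698 for ST6GAL1.

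Among galactose genes, the galactosyltransferases B4GALT1 (-0.24, adjusted p = 2.69e-06) and B4GALT2 (-0.23, adjusted p = 0.00710) fell, and the UDP-galactose transporter SLC35A2 rose (0.26, adjusted p = 1.20e-04). The third galactosyltransferase, B4GALT3 (-0.04, adjusted p = 0.547), did not pass. B4GALT2 lost its call without shPRSS22 replicate 1 (adjusted p = 0.0667). In the authors' deposited table the q-value was 0.0751 for B4GALT2 and 0.106 for FCSK, described next. In the fucose branch 2 of 5 passed, a share near the 39.1% of all tested genes, and both fell, namely GFUS, which completes GDP-fucose (-0.28, adjusted p = 2.30e-05), and the salvage kinase FCSK (-0.32, adjusted p = 0.00994), which lost its call without shCtrl replicate 1 (0.0651).

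The 28 tested protein-coding genes nearest to the 14 genes past the threshold, 1 on each side, were examined as well. Of these neighbours 8 passed (28.6%, against 39.1% of all tested genes), 6 of them in the direction of the N-glycan gene. PINK1 next to DDOST (0.26, adjusted p = 1.54e-05) and DNAAF2 next to MGAT2 (0.23, adjusted p = 0.00293) passed in the opposite direction. EXOSC8, an exosome subunit gene read away from ALG5 on the other strand, stood at 31.4, 33.9 and 32.5 CPM in shPRSS22, against 30.8, 35.7 and 33.7 CPM in shCtrl libraries, and did not pass (-0.03, SE 0.062). DPP7, a dipeptidyl peptidase gene next to MAN1B1, stood at 56.8, 57.6 and 53.0 CPM in shPRSS22, against 74.8, 80.2 and 76.9 CPM in shCtrl libraries (-0.47, SE 0.047, adjusted p = 1.14e-09). NFU1, an iron-sulfur cluster gene next to GFPT1, had 30.5, 31.9 and 32.1 CPM in shPRSS22, against 22.5, 24.8 and 26.5 CPM in shCtrl libraries (0.36, SE 0.066, adjusted p = 6.14e-05).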

How the data were processed

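RNA-seq of 6 HCT116 libraries (3 shPRSS22, 3 shCtrl) was deposited as 1 table. Per the file headers it holds each gene's estimated counts and TPM, computed by the authors, with the authors' log2 fold change, p-value and q-value. The submitters' processing notes name RSEM 1.3.1 with the aligners Bowtie2 2.3.4.3 and HISAT2 2.2.1, DESeq2 1.4.5 in R 4.3.1, FastQC 0.12.1 and the build GRCh38.p13. Their order, the annotation and strand use are not given in the sources used here; estimation divides reads shared by paralogs.

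Estimated counts, 14920523 to 15466647 per library, were rounded, filtered with filterByExpr (13104 of 17269 genes kept), scaled by TMM and tested with edgeR 4.0.16 (robust quasi-likelihood F test, two-sided) in R 4.3.3, with Benjamini-Hochberg adjustment over all tested genes and a threshold of 0.05. The SE is the log2 fold change divided by the root of F. The common coefficient of variation was 2.97%. CPM are TMM-scaled. Paralog ratios used deposited TPM and an exact permutation test. Alternatives were DESeq2 1.42.0, other scalings and filters, a fold of 1.2, a replicate block and leaving out each library. The edgeR fit was also run, without the filter, on counts simulated with the dispersions fitted to these libraries. That run cannot show whether the spread between libraries is technical.

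All 43 genes are named; values in every library are given for those past the threshold with a mean of at least 1 CPM, up to 9 in each direction, and for up to 4 further pathway genes in each direction. Additional ones were chosen after their values were seen. The values of 1 further pathway gene, included in the counts, are not reported here. The members and lists were chosen with earlier results of these data known. Positions are from GENCODE 29 (GRCh38), promoter sequences from RefSeq (GRCh38.p14).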

Additional observations from a re-analysis of the deposited data

How the results depend on the processing

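ALG5, GFPT1, UAP1, DAD1, DPM1, STT3A, MAN1B1, MAN1A1 and DDOST kept their call in all 12 refits, and none of the 14 called genes changed sign. Leaving out 1 library gave 6 to 8 higher and 5 to 7 lower N-glycan genes. DESeq2 dropped MPI, ALG8, MAN2A2 and MGAT2 and added RPN2. ALG8 was also lost with upper-quartile scaling and with no filter on low counts. With a fold of at least 1.2, N-glycan genes numbered 3 higher and 2 lower, further pathway genes 5 and 9, and all genes 1086 and 1303. With DESeq2, 9 further pathway genes (17 with edgeR) and 1637 of all genes (2523 with edgeR) were lower; the cause was not tested. The median of all genes stayed within -0.0122 to -0.0019 under every scaling and left-out library.

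The labels do not say whether replicate numbers pair the samples. Deviations of same-numbered libraries correlated weakly, at 0.0357, 0.0501 and 0.104, and those of different-numbered libraries at -0.106 to 0.0618. With the replicate number as a block, 8 N-glycan genes were higher and 9 lower (all 14 kept; DPAGT1, ALG1 and RPN2 added), 10 and 17 further pathway genes, and 2782 and 2747 of all genes; PRSS22 was at -1.74.

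Signs changed for values near 0. With DESeq2 size factors DPM2 gave 0.000457, RPN1 0.000727 and FUT8 0.000385, and with upper-quartile scaling MAN1A2 gave -0.000541. Over the left-out libraries the log2 fold change ran from -0.10 to 0.087 for DPM2, -0.012 to 0.025 for ALG2, -0.059 to 0.028 for ALG6, -0.012 to 0.015 for RPN1, -0.020 to 0.038 for MAGT1, -0.017 to 0.033 for MOGS, -0.0098 to 0.034 for MAN1A2, -0.024 to 0.0081 for MGAT4B and -0.033 to 0.037 for FUT8, and the MAN2A1 to MAN2A2 ratio from -0.035 to 0.12. The cause was not tested. The fewest counts among the 43 genes were those of DPM3 and TUSC3, with 43 to 69 counts per library.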
